A study of Homo sapiens with 16 samples.

Results

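ZIC1, LHX9, ALX4, EPHA3, SHISA3, HGF, TRPC6 and TMEM132C are 8 developmental genes, out of 62754 genes counted, that were followed here across 16 cultures of stem-cell-derived islets. They were chosen by their measured levels in these same libraries, as genes that were high where CHGA was low, so their inverse relation to CHGA is a description and carries no test. CHGA encodes chromogranin A, a granule protein of endocrine cells, and served as the measure of endocrine content. The cell line, HUES8 (HUES08 with WT genotype in the labels), is an established line of human embryonic stem cells and was taken through a standard differentiation towards islets. Cultures received colchicine at 10 nM, epirizole at 2.5 uM, Ly-294002 at 120 nM, moxifloxacin at 1.1 uM, rottlerin at 1.23 uM, vardenafil at 125 nM, rimonabant at 125 nM or the solvent DMSO, from stage 5 until day 7 of stage 6. Each of the 8 groups had 2 libraries of total RNA from whole cultures, and all 16 carried the same batch label. The study asked which compounds, picked by a prediction tool, alter the maturation of such islets. Whether replicate libraries represent separate differentiations is not stated in the labels, so p-values measure only library-to-library spread, which may be technical.

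During differentiation towards islets, cells of the pancreatic lineage leave the cell cycle, switch on an endocrine programme and begin to store hormones in granules. Cells that take other routes can remain beside them, and mesenchymal cells in embryos express many patterning genes that endocrine cells lack. Among the 8 genes, ZIC1 encodes a zinc finger transcription factor of the dorsal neural tube and its derivatives, LHX9 a LIM homeodomain factor needed for gonad formation in mice, and ALX4 a paired-type homeodomain factor of craniofacial and limb mesenchyme. EPHA3 is a receptor tyrosine kinase for ephrin-A ligands, and SHISA3 belongs to a family whose founder in Xenopus holds back Wnt and FGF receptors. HGF is the secreted ligand of the receptor MET and is typically made by mesenchymal cells. TRPC6 is a calcium-permeable channel opened by diacylglycerol, and TMEM132C encodes a transmembrane protein.

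Library totals ran from 23294377 to 30701868 reads, and the floor of 3 reads, the upper limit that a count of 0 allows, was 0.0977 to 0.129 CPM (a gene's reads scaled to the library total) and covers counting error only. All 8 genes were among the 24515 that passed the filter on low counts. The endocrine markers were present but low: CHGA ran from 31.6 to 315 CPM with a median of 95.5, and insulin (INS) had a median of 2.13 CPM, whereas AFP, a product of fetal liver and yolk sac, had a median of 4716 CPM. Liver and mesenchyme genes were thus present beside islet genes. In such bulk samples, fewer cells of a type and less RNA per cell cannot be told apart.

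The 8 genes are protein coding in GENCODE v29 (GRCh38). ZIC1 lies on chromosome 3 from 147393422 to 147510293 on the plus strand, and ZIC4 overlaps its exons on the opposite strand with 0 to 4 reads per library. EPHA3 lies on the same chromosome from 89107524 to 89482134 on the plus strand, and LHX9 on chromosome 1 from 197911902 to 197935478 on the plus strand. On chromosome 11 lie ALX4 from 44260440 to 44310166 and TRPC6 from 101451564 to 101872562, both on the minus strand. SHISA3 lies on chromosome 4 from 42397839 to 42402487 on the plus strand, HGF on chromosome 7 from 81699008 to 81770438 on the minus strand, and TMEM132C on chromosome 12 from 128267403 to 128707915 on the plus strand. Apart from ZIC1, no member shares an exon with another gene of this annotation. The release used for counting is not given, so overlaps in the counts themselves may differ.

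Because the members varied together across libraries, the 250 bases before their RefSeq start sites were compared (RefSeq, GRCh38.p14). Of the 8 genes 7 had such a sequence, 8 windows in all, and ALX4 had none. The TATAAA motif, searched on both strands, was in 0 of the 8 windows and in 10.7% of 35114 windows of the same length. Their CpG content differed widely, and the ends and the middle of the range are shown by 3 members whose windows touch no exon of GENCODE v29: ZIC1 at chr3:147409115-147409364 on the plus strand with 23 CpG, TMEM132C at chr12:128267742-128267991 on the plus strand with 11, and TRPC6 at chr11:101584008-101584257 on the minus strand with 4. Capitals mark each CpG, and the median of all windows was 11.
ZIC1: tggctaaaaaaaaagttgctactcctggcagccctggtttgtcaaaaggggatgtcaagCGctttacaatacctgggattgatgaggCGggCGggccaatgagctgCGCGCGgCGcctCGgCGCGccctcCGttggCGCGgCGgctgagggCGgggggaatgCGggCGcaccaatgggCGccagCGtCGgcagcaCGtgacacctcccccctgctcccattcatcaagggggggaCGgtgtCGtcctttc
TMEM132C: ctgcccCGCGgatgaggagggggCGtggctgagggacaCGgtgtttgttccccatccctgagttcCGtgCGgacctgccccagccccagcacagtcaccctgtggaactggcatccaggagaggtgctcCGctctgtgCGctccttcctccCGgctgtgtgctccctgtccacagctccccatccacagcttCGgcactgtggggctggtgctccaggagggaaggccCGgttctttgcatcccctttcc
TRPC6: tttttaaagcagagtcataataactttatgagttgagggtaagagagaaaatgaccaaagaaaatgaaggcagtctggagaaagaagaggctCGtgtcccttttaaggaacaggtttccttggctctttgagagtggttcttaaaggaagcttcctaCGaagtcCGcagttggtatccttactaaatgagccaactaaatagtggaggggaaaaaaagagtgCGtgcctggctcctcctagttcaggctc
The GC content of these windows was 64.4% for ZIC1, 66.0% for TMEM132C and 43.2% for TRPC6, beside a median of 58.0% over all windows. A CpG count as high as that of ZIC1 was found in 25.8% of all windows, and one as high as that of TRPC6 in 70.7%. ZIC1 and TRPC6, at opposite ends of this range, were both higher in the library with less CHGA in all 8 treatments. The members were selected on that relation, so nothing about CpG content is read from it.

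Among the transcription factors, ZIC1 was low in every library and close to absent in several. It had 2 and 23 reads with colchicine, 1 and 42 with epirizole, 53 and 38 with Ly-294002, 27 and 1 with moxifloxacin, 16 and 108 with rottlerin, 15 and 3 with vardenafil, 75 and 46 with rimonabant, and 19 and 44 with DMSO. The 108 reads of the second rottlerin library, 3.53 CPM, were the highest value, and 4 libraries were at or under 3 reads. Both libraries with colchicine and both with vardenafil lay below both DMSO libraries, and those with the other 5 compounds overlapped DMSO. LHX9 had 7 and 42 reads with colchicine, 4 and 43 with epirizole, 12 and 37 with Ly-294002, 2 and 0 with moxifloxacin, 1 and 35 with rottlerin, 3 and 2 with vardenafil, 95 and 0 with rimonabant, and 16 and 79 with DMSO. It was near or at 0 in both moxifloxacin and both vardenafil libraries, and with rimonabant it was both highest, at 3.35 CPM, and at 0. In all, 6 libraries held LHX9 at or under 3 reads.

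ALX4 was the most abundant of the transcription factors and was above 3 reads in every library. Its level was 0.271 and 1.21 CPM with colchicine, 2.31 and 7.47 with epirizole, 9.12 and 4.76 with Ly-294002, 2.95 and 0.531 with moxifloxacin, 1.69 and 3.30 with rottlerin, 3.38 and 1.98 with vardenafil, 4.02 and 4.41 with rimonabant, and 5.97 and 3.59 with DMSO. The colchicine, moxifloxacin, rottlerin and vardenafil libraries were all below both DMSO libraries, and the highest library was 33.7-fold above the lowest. With rimonabant the 2 libraries were close together, although their CHGA differed 2.47-fold.

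EPHA3, the receptor for ephrin-A ligands, was one of the better measured members, with 38 to 655 reads. Its level was 2.36 and 1.52 CPM with colchicine, 5.73 and 21.8 with epirizole, 20.2 and 11.5 with Ly-294002, 5.07 and 1.34 with moxifloxacin, 3.59 and 6.64 with rottlerin, 13.9 and 10.99 with vardenafil, 17.9 and 6.05 with rimonabant, and 13.5 and 20.5 with DMSO. The colchicine, moxifloxacin and rottlerin libraries stood apart below DMSO, and the span over all libraries was 16.3-fold. SHISA3 was the least abundant member by mean CPM, with 3 and 2 reads with colchicine, 10 and 39 with epirizole, 23 and 21 with Ly-294002, 8 and 0 with moxifloxacin, 0 and 9 with rottlerin, 11 and 12 with vardenafil, 20 and 2 with rimonabant, and 37 and 16 with DMSO. Its colchicine, moxifloxacin, rottlerin and vardenafil libraries lay below both DMSO libraries, and 5 libraries were at or under 3 reads.

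HGF, the ligand of MET, had 3 and 8 reads with colchicine, 15 and 43 with epirizole, 54 and 10 with Ly-294002, 46 and 5 with moxifloxacin, 2 and 25 with rottlerin, 36 and 23 with vardenafil, 29 and 13 with rimonabant, and 26 and 39 with DMSO. The colchicine, rottlerin and rimonabant libraries were below both DMSO libraries. TRPC6, the calcium-permeable channel, had 1 and 5 reads with colchicine, 2 and 42 with epirizole, 32 and 9 with Ly-294002, 7 and 3 with moxifloxacin, 5 and 33 with rottlerin, 52 and 24 with vardenafil, 17 and 16 with rimonabant, and 17 and 26 with DMSO. Here the colchicine, moxifloxacin and rimonabant libraries lay below DMSO, and the first vardenafil library was the highest at 2.07 CPM.

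TMEM132C was the most abundant of the 8, with 41 to 852 reads. Its level was 2.67 and 4.49 CPM with colchicine, 7.74 and 22.9 with epirizole, 27.8 and 13.4 with Ly-294002, 12.6 and 1.45 with moxifloxacin, 8.83 and 9.06 with rottlerin, 15.3 and 7.37 with vardenafil, 11.8 and 12.9 with rimonabant, and 15.7 and 13.9 with DMSO. The colchicine, moxifloxacin, rottlerin and rimonabant libraries were below both DMSO libraries, and the DMSO libraries themselves were close together. Per kilobase of exon the mean levels over all libraries ran in the order TMEM132C at 2.38, EPHA3 at 1.53, ALX4 at 0.621, SHISA3 at 0.253, ZIC1 at 0.167, TRPC6 at 0.121, HGF at 0.0881 and LHX9 at 0.0823 CPM per kilobase (TMM-normalised, that is, CPM rescaled for library composition).

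**Figure D1:**
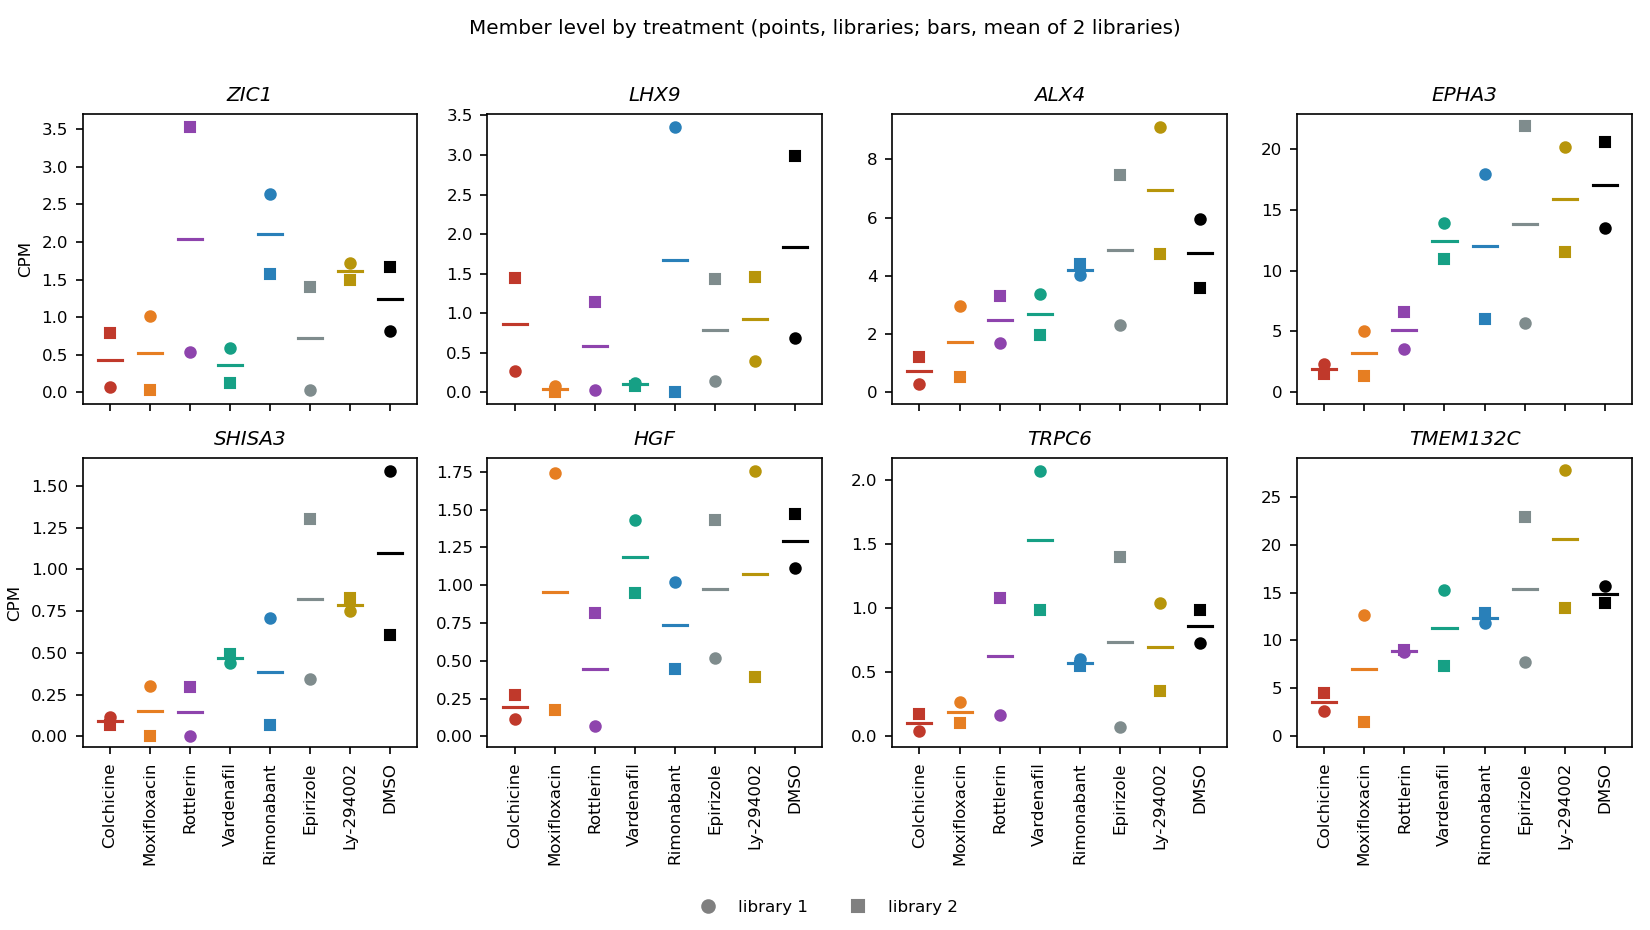
Level of each of the 8 genes (CPM, linear axis) in each library by treatment, with the 7 compounds on the left and DMSO on the right. Circles and squares are the first and second library and bars the mean of the 2. Colchicine libraries lie below both DMSO libraries for 7 of the 8 genes, all but LHX9.

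The members were related to CHGA over the 16 libraries on the scale of log2(TMM-normalised CPM + 0.5). CHGA itself differed 1.89-fold to 6.74-fold between the 2 libraries of a treatment. No compound was called against DMSO in CHGA by edgeR's quasi-likelihood test (log2 changes of -0.93 to 0.48, SE 1.38 to 1.40, lowest adjusted p 0.921). With SEs of that size, the lack of calls does not show that CHGA was unchanged. Pearson's r with CHGA was -0.72 for ZIC1, -0.59 for HGF, -0.55 for TRPC6, -0.53 for TMEM132C, -0.50 for ALX4, -0.49 for LHX9, -0.38 for EPHA3 and -0.30 for SHISA3, with Spearman's rho between -0.71 for ZIC1 and -0.29 for SHISA3. The 2 values of a point come from the same library and share its depth and cell mixture, and the correlations are given without p. Of the 8, 4 had r below -0.5, as did 4.71% of all tested genes, and the median r was -0.51 over the members and -0.01 over all tested genes. Since the members were selected on this relation, nothing is read from that contrast.

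The label of these genes as high in endocrine-poor cultures held best for ZIC1, which ranked 65 from the most negative among all tested genes, and least for SHISA3, which ranked 4473. HGF ranked 488, TRPC6 695, TMEM132C 901, ALX4 1181, LHX9 1217 and EPHA3 2871. Without the 2 libraries farthest from the median of CHGA, the second moxifloxacin and the second rottlerin library, r was -0.60 for ZIC1, -0.55 for HGF, -0.45 for TRPC6, -0.44 for TMEM132C, -0.41 for LHX9, -0.40 for ALX4, -0.28 for EPHA3 and -0.24 for SHISA3. The values for EPHA3 and SHISA3 rested most on single libraries. For EPHA3 r was -0.60 without the second colchicine library and -0.24 without the second moxifloxacin library, and for SHISA3 it was -0.48 without the first DMSO library and -0.18 without the second moxifloxacin library.

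The relation was also described within treatments. In each treatment the library with less CHGA was set against the one with more, and in 54 of 64 such pairs of values the member was higher where CHGA was lower. ZIC1, HGF and TRPC6 were higher there in 8 of 8 treatments, LHX9 and EPHA3 in 7, ALX4 and TMEM132C in 6 and SHISA3 in 4. Of all tested genes, 21.5% were higher in the library with less CHGA in at least 6 of the 8 treatments and 1.99% in all 8. The members were selected on this relation, so nothing is read from that contrast either. They also varied together, so the 64 pairs are not separate observations. For SHISA3 the 4 treatments in which it was higher there differed by 0.69 to 1.12 log2 units, while the other 4 gave -0.92 with DMSO and between -0.12 and -0.08 with colchicine, Ly-294002 and vardenafil. By treatment, all 8 members were higher in the library with less CHGA with epirizole, moxifloxacin and rottlerin, 7 with vardenafil, 6 with colchicine, Ly-294002 and rimonabant, and 5 with DMSO. The DMSO libraries differed least in CHGA, with 90.2 TMM-normalised CPM in the second and 170 in the first. After each treatment's mean was subtracted, r was -0.96 for ZIC1, -0.90 for HGF, -0.87 for TRPC6, -0.86 for ALX4, -0.78 for TMEM132C, -0.77 for EPHA3, -0.61 for LHX9 and -0.54 for SHISA3. The 2 libraries of a treatment mirror each other on that scale, so each value rests on 8 differences. It is therefore not a like measure to r over the 16 libraries.

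**Figure D2:**
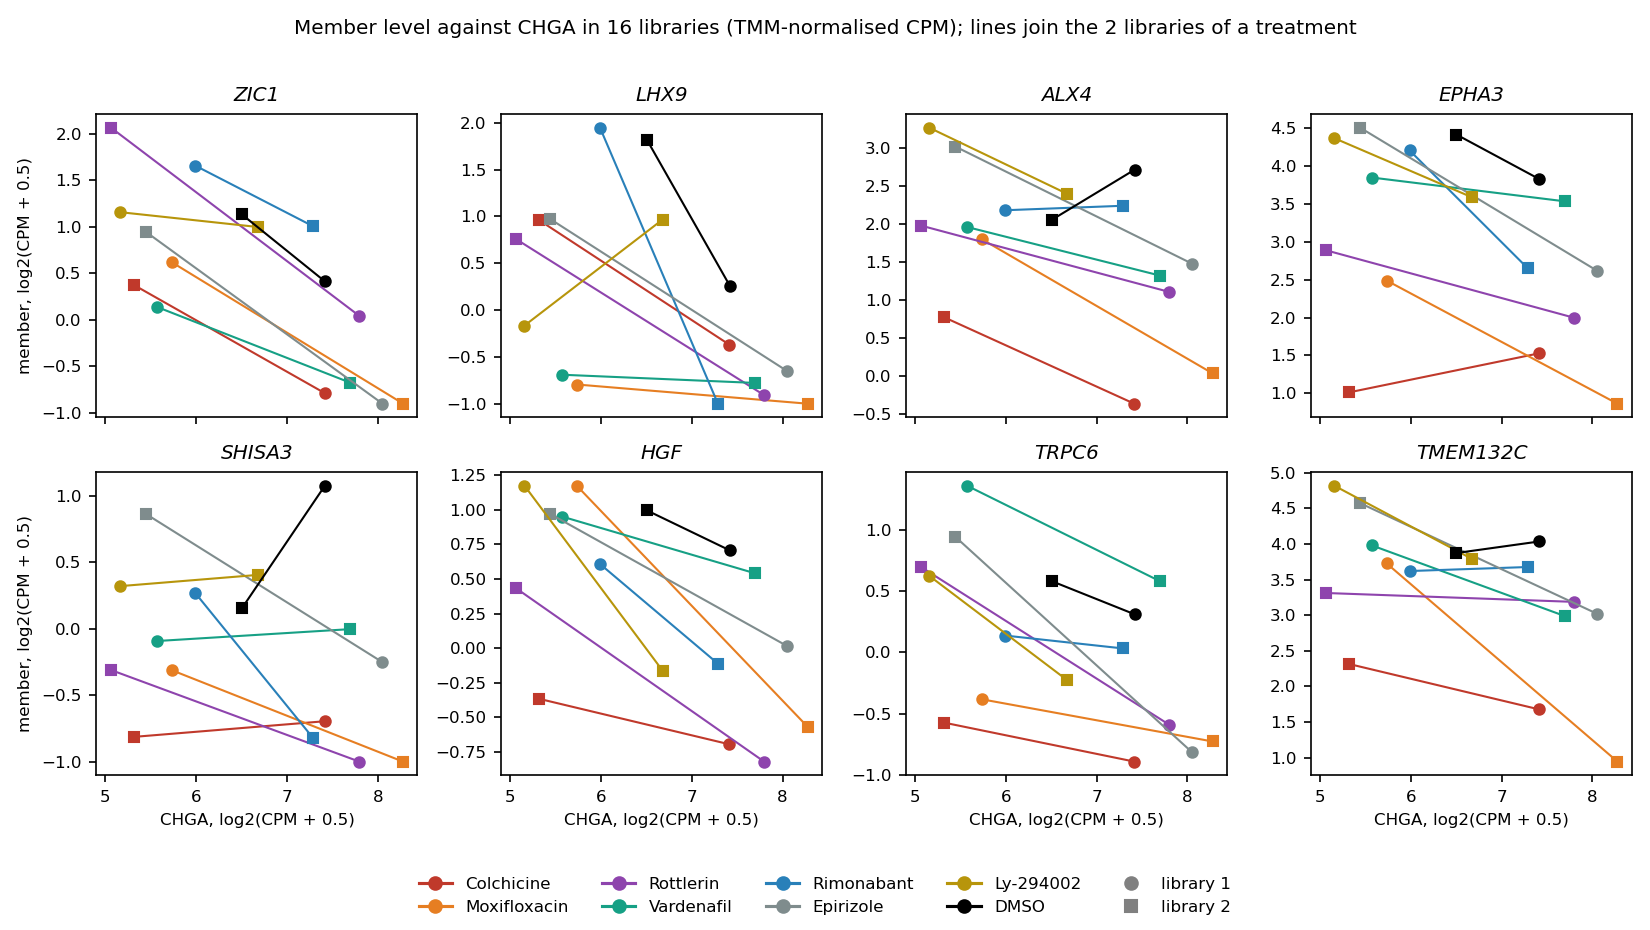
Level of each of the 8 genes against CHGA, both as log2(TMM-normalised CPM + 0.5), in 16 libraries. Lines join the 2 libraries of a treatment, with DMSO in black. In the panels of ZIC1, HGF and TRPC6 all 8 lines run down to the right, and in that of SHISA3 only 4 do.

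Each compound was then compared with DMSO, a contrast that asks whether any member differed beyond the spread between libraries. The members were selected on CHGA, which differed between the 2 libraries of every treatment. This selection can widen that spread, so a lack of calls does not show a lack of change. None of the 8 genes passed an adjusted p of 0.05 with any compound by edgeR's quasi-likelihood test, and none passed the joint test of the 7 compounds, where the lowest adjusted p was 0.375, for EPHA3, the 1 member with an unadjusted p under 0.05 there. DESeq2 called EPHA3 with colchicine (adjusted p = 0.00928), where it gave 5 of the 8 no adjusted p, and 1 member in the joint test. Of all 24515 tested genes, DESeq2 called 926 with colchicine, where 9031 had no adjusted p, and 1217 in the joint test. By edgeR, 0.196% of all tested genes were called with colchicine, 0.00816% with rottlerin, 7.8% with rimonabant and 0.00408% by the joint test. The edgeR share was 0% with each of epirizole, Ly-294002, moxifloxacin and vardenafil. At an unadjusted p under 0.05 the count of members, all lower than DMSO, was 5 with colchicine, 2 with moxifloxacin and 1 with rottlerin, and 0 with the other 4. The share of all tested genes lower at that level was 8.52% with colchicine, 2.17% with epirizole, 2.25% with Ly-294002, 5.85% with moxifloxacin, 6.48% with rottlerin, 2.45% with vardenafil and 11.3% with rimonabant. All 7 comparisons share the 2 DMSO libraries.

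With colchicine, which blocks the assembly of tubulin into microtubules, all 8 members had a lower estimate than in DMSO, and their median log2 change was -2.69, beside -0.01 over all tested genes. EPHA3 averaged 1.95 ± 0.61 TMM-normalised CPM with colchicine and 17.3 ± 5.05 with DMSO (SD, n = 2 each). The log2 change of EPHA3 was -3.15 ± 0.89 (SE, edgeR, adjusted p = 0.123). ALX4 averaged 0.740 ± 0.660 with colchicine and 4.85 ± 1.71 with DMSO, a log2 change of -2.68 ± 0.92 (edgeR, adjusted p = 0.171). TMEM132C averaged 3.59 ± 1.26 with colchicine and 15.0 ± 1.24 with DMSO, a log2 change of -2.06 ± 0.89 (edgeR, adjusted p = 0.272). Of the members with few reads, SHISA3 had a log2 change of -3.53 ± 1.36 (edgeR, adjusted p = 0.202) and TRPC6 one of -2.95 ± 1.28 (edgeR, adjusted p = 0.256). In SHISA3 both colchicine libraries were at or under 3 reads, so that its fold rests on a level near the floor. The log2 change of ALX4 was -2.001 without the first colchicine library and -4.12 without the second.

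With moxifloxacin, a fluoroquinolone antibiotic, all 8 members also had a lower estimate than with DMSO, and their median log2 change was -1.85, beside -0.01 over all tested genes. EPHA3 had a log2 change of -2.44 ± 0.85 (edgeR, adjusted p = 0.346) and SHISA3 one of -2.86 ± 1.27 (edgeR, adjusted p = 0.409). The second moxifloxacin library, which had the most CHGA of all 16, held the lower value of each of the 8 members. The log2 change of EPHA3 was -3.71 without the first moxifloxacin library and -1.76 without the second. With rottlerin, which is used as a kinase inhibitor, 7 of 8 members were lower, their median log2 change was -1.22 beside a value within 0.01 of 0 over all genes tested, and SHISA3 had a log2 change of -2.83 ± 1.25 (edgeR, adjusted p = 0.318). SHISA3 with moxifloxacin or rottlerin had 0 reads in 1 library of each pair. Its log2 change was -1.84 without that library with moxifloxacin and -1.83 with rottlerin.

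With the other 4 compounds the median change was smaller, although LHX9 had a log2 change of -4.15 and ZIC1 one of -1.79 with vardenafil. Both were larger in size than with colchicine and both were without an unadjusted p under 0.05. LHX9 had 3 and 2 reads with vardenafil, so its fold rests on a level near the floor, and ZIC1 had 15 and 3. With vardenafil, an inhibitor of phosphodiesterases, 7 of 8 were below DMSO (median log2 change -0.66), and with rimonabant, which acts on a cannabinoid receptor, 7 of 8 with a median of -0.43. With epirizole, an anti-inflammatory drug, 6 were below with a median of -0.36, and with the PI3 kinase inhibitor Ly-294002 5 were below with a median of -0.20. The median over all tested genes was within 0.01 of 0 in each of these 4 comparisons. ZIC1 and TRPC6 showed the largest values above DMSO, with log2 changes of 0.81 for TRPC6 with vardenafil and 0.73 and 0.71 for ZIC1 with rottlerin and rimonabant, none with an unadjusted p under 0.05.

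**Figure D3:**
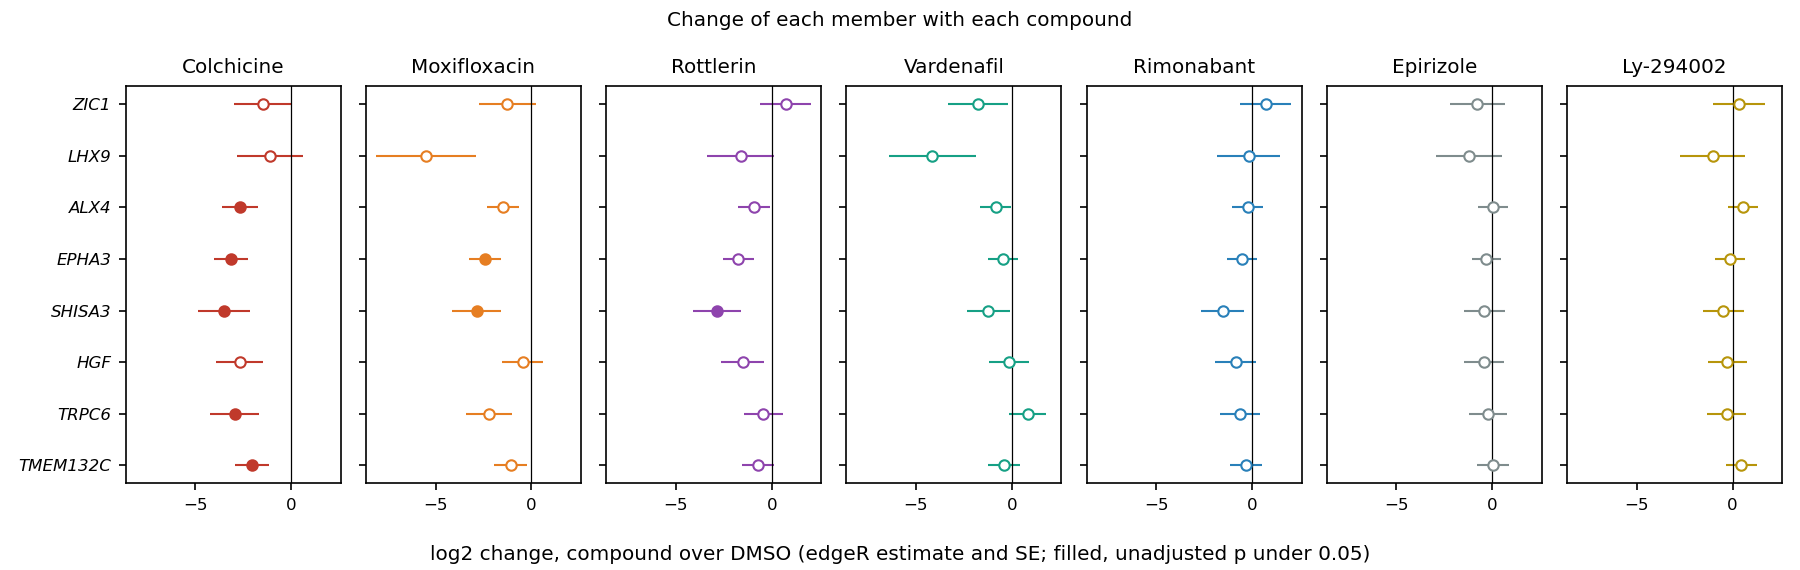
Log2 change of each of the 8 genes with each compound over DMSO (edgeR estimate, bars are ± 1 SE, filled points have an unadjusted p under 0.05). All 8 points lie left of 0 with colchicine and moxifloxacin, and none passed an adjusted p of 0.05.

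Counted without a test, both libraries lay below both DMSO libraries for 7 members with colchicine, 6 with moxifloxacin, 5 with rottlerin, 4 with vardenafil, 3 with rimonabant and 0 with epirizole and Ly-294002. The same was seen for 25.8% of all tested genes with colchicine, 24.4% with moxifloxacin, 24.4% with rottlerin, 20% with vardenafil, 26.4% with rimonabant, 19% with epirizole and 19.5% with Ly-294002. On TMM-normalised CPM no member had both libraries of a compound above both DMSO libraries. On plain CPM TRPC6 with vardenafil did, at 2.07 and 0.988 against 0.730 and 0.983 with DMSO. The share over all tested genes was not counted in this direction. Ordered by mean level, DMSO ranked between 1 and 4 of the 8 groups for every member, and colchicine between 4 and 8. Colchicine was the lowest group for ALX4, EPHA3, SHISA3, HGF, TRPC6 and TMEM132C, vardenafil for ZIC1 and moxifloxacin for LHX9. Neighbours in these orders were mostly not apart. Of 56 neighbouring pairs of groups, 5 had libraries that did not overlap, a number not counted over all tested genes. These were Ly-294002 above vardenafil for SHISA3, rimonabant above vardenafil for ALX4, rimonabant above moxifloxacin for TRPC6, rimonabant below DMSO for TMEM132C, and vardenafil above moxifloxacin for LHX9, a pair whose libraries were all at or under 3 reads and so is not told apart.

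With CHGA entered beside the treatment, the comparison asks how a compound's libraries differ from DMSO at a given CHGA level. Since the members were selected on their relation to CHGA, this covariate takes up their spread by choice, and the counts are given as a description. By edgeR with that covariate 5 members passed with colchicine, where 3.71% of all tested genes were called lower, and 1 passed with rottlerin, where 1.57% were. The log2 changes with colchicine were -3.75 ± 0.73 for TRPC6 (adjusted p = 0.0086), -3.42 ± 0.65 for HGF (adjusted p = 0.00774), -3.37 ± 0.58 for EPHA3 (adjusted p = 0.0131), -3.23 ± 0.51 for ALX4 (adjusted p = 0.00474) and -2.59 ± 0.64 for ZIC1 (adjusted p = 0.0248). With rottlerin the member called was HGF, at -2.48 ± 0.59 (edgeR, adjusted p = 0.0322). The fitted slopes ran from -1.25 for LHX9 and -1.11 for ZIC1 to -0.49 for EPHA3 and -0.48 for TMEM132C, in log2 units of the member per log2 unit of CHGA.

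The 8 genes varied together to different degrees. All 28 pairwise correlations over the 16 libraries were positive. They were highest between ALX4 and TMEM132C at 0.95, EPHA3 and TMEM132C at 0.86, ALX4 and EPHA3 at 0.85 and EPHA3 and SHISA3 at 0.85. LHX9 stood most apart, with r of 0.27 to TRPC6, 0.29 to HGF and 0.30 to TMEM132C. These values share libraries, and the members share the relation to CHGA by which they were chosen.

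**Figure D4:**
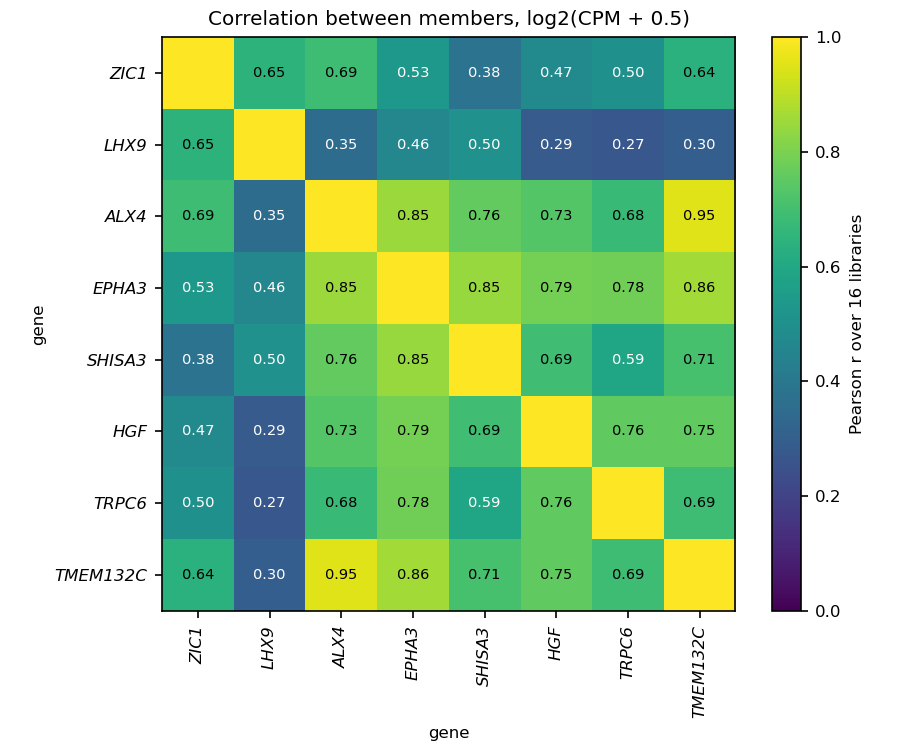
Pearson correlations between the 8 genes over 16 libraries, on log2(TMM-normalised CPM + 0.5). The block of ALX4, EPHA3 and TMEM132C holds values from 0.85 to 0.95, and the row of LHX9 the lowest values, from 0.27.

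The genes with the most similar profiles were looked up among those with a symbol and a mean of at least 1 CPM. For TMEM132C they were PRRX1 (r = 0.97), a homeobox gene of limb and craniofacial mesenchyme, BMP4 (0.96), a secreted patterning factor, and HS3ST3A1 (0.96), a heparan sulfate sulfotransferase. For ALX4 they were SCUBE1, GLT8D2 and EBF3 (0.96 each), for EPHA3 the collagen receptor DDR2 (0.95), CLMP (0.94) and MIR100HG (0.93), and for SHISA3 CCDC88A (0.92), the secreted Wnt antagonist SFRP1 (0.91) and TSHZ3 (0.89). ZIC1 was near to FJX1 (0.84) and the laminin gene LAMA2 (0.81), and LHX9 to DOCK11, ANKRD37 and PRDM6 (0.81 each). HGF was nearest to UBA2 (0.93), INO80 (0.90) and ERBB4 (0.89), and TRPC6 to the glycolytic genes ENO1 (0.93) and HK2 (0.92) and to EIF4B (0.92). By the median of the 8 correlations the 10 nearest genes were MIR100HG (0.86), DDR2, PCDH18, CDH11, PTX3, ZEB1, ARHGAP28, RPL23, CLMP and MIR17HG (0.81). CDH11 is a cadherin of mesenchymal cells and ZEB1 a repressor of epithelial genes.

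The relatives of the members did not all follow them. Among the paired-type homeobox genes, PRRX1 had r of -0.52 with CHGA and PRRX2 -0.61, and PRRX1 was the most abundant with a median of 29.2 CPM. SHOX2, a homeobox gene of limb and heart, had r of 0.70. Of the 5 ZIC genes only ZIC1 passed the filter on low counts, and ZIC4 never exceeded 4 reads. Of 12 LIM homeobox genes 7 were tested and none had r below -0.5, while ISL1, a factor of islet cells, had r of 0.73 at a median of 10.0 CPM. No gene of these 3 lists was called with any compound by edgeR at an adjusted p under 0.05 or by DESeq2, and 3 of the paired-type homeobox list, 0 of the others, had an unadjusted p under 0.05 with some compound.

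Among the 9 EPHA receptors, EPHA4 had r of -0.71 and EPHA2 -0.58 with CHGA, and EPHA10 had 0.70, whereas EPHA7, the most abundant with a median of 137 CPM, had 0.37. Of the 5 ephrin-A ligands, which bind these receptors, EFNA5 had r of -0.51 at a median of 132 CPM and EFNA2 had 0.54. EPHA1 rose with rimonabant by edgeR (log2 change 0.71 ± 0.17, adjusted p = 0.0236), and no other gene of these lists was called by edgeR, against 3 receptors and 1 ligand by DESeq2 with some compound. In the HGF and MET list, MET, the receptor of HGF, had a median of 102 CPM and r of -0.23, and 1 of 10 genes, HGF itself, had r below -0.5. The protease ST14 and the inhibitors SPINT1 and SPINT2, which act on the activation of HGF, rose with rimonabant by 0.56, 0.39 and 0.33 on the log2 scale (edgeR, adjusted p = 0.0187, 0.0281 and 0.0413). In the SHISA list, 6 of 8 genes were tested and none had r below -0.5. SHISA2 fell with colchicine (log2 change -1.91 ± 0.34, edgeR, adjusted p = 0.0401) and SHISA5 rose with rimonabant (0.41 ± 0.09, adjusted p = 0.0222). Of 6 TRPC channels, TRPC7 had r of 0.89 with CHGA, opposite in sign to TRPC6, and 0 were called by either tool, with 2 at an unadjusted p under 0.05. Of 5 TMEM132 genes, TMEM132B had r of -0.42, and TMEM132A rose with rimonabant (0.80 ± 0.13, edgeR, adjusted p = 0.012). These calls changed when 1 library was left out, which leaves 1 group with a lone library assumed to vary like the others. The rimonabant calls were lost without either DMSO library or without the second rimonabant library, where all genes gave 0 calls, and kept without the first, where all genes gave 3913, against 1913. The call of SHISA2 with colchicine was lost without any 1 of the 4 libraries, with log2 changes of -1.96 to -1.87. With an offset for GC content all genes gave 0 calls with rimonabant and 1 with colchicine, against 1913 and 48.

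The markers of other cell types were summed in each library beside these values. Of 14 endocrine genes 12 had r above 0.5 with CHGA, a count that includes CHGA itself. PCSK2 and RFX6 were the exceptions at -0.29 and -0.25. All 16 mesenchyme genes were tested, led by COL3A1 with a median of 850 CPM and VIM with 799 CPM, and 1 of them, COL3A1, had r below -0.5 with CHGA, with a median r of -0.39. Their summed level ran from 2555 to 2603 CPM with colchicine, 2877 to 3994 with epirizole, 3385 to 4330 with Ly-294002, 2130 to 3010 with moxifloxacin, 2516 to 2666 with rottlerin, 2393 to 3190 with vardenafil, 2993 to 3649 with rimonabant and 3157 to 3371 with DMSO. The colchicine, moxifloxacin and rottlerin libraries, in which most members lay below DMSO, were also below DMSO in this sum. With colchicine 7 of the 16 were lower at an unadjusted p under 0.05, beside 8.52% of all tested genes. With any compound 0 of the 16 were called by edgeR and 6 by DESeq2, beside 7.86% of all tested genes by edgeR and 14% by DESeq2. Of 11 craniofacial and limb mesenchyme genes 4 had r below -0.5, with a median of -0.48. Their sum ran from 100.1 to 197.7 CPM with colchicine, 157.8 to 220.9 with epirizole, 209.4 to 285.0 with Ly-294002, 99.9 to 201.9 with moxifloxacin, 156.2 to 191.7 with rottlerin, 169.8 to 274.3 with vardenafil, 203.4 to 223.8 with rimonabant and 215.8 to 225.1 with DMSO. With colchicine 5 of the 11 were lower at an unadjusted p under 0.05, beside the same 8.52%, and with any compound 0 were called by edgeR and 1 by DESeq2. These 2 lists share TWIST1, and the second shares further genes, PRRX1 among them, with the homeobox list.

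Some defining markers of neural crest and of skeletal muscle were at or near 0 in lists whose other genes were well measured. In the neural crest and Schwann list FOXD3 had 0 reads in every library and S100B at most 2 and SOX10 at most 6, while ERBB3 had a median of 261 CPM and TFAP2B 57.2, and 1 of 5 tested genes, NGFR at -0.61, had r below -0.5. In the skeletal muscle list MYOG and MYF5 had 0 reads in every library and MYOD1 and MYF6 at most 1, while TTN, at a median of 307 CPM, and MYH3 had r of -0.55 and -0.69. Of 11 tested neural tube genes, MSX2 had r of -0.54, while PAX6, which endocrine cells also express, had 0.96 and SOX1 0.85. Among smooth muscle and pericyte genes 0 of 8 had r below -0.5, and among mesothelium genes 0 of 6. Endothelial genes gave 1 of 6, ERG at -0.61, and cartilage genes, led by COL2A1 at a median of 746 CPM, epithelium genes and liver genes 0 of 8, 7 and 7. KRT18 (0.53 ± 0.09, edgeR, adjusted p = 0.0401) and COL2A1 (0.83 ± 0.10, edgeR, adjusted p = 0.00993) rose with colchicine, and COL2A1, KRT19, CLDN4 and APOA1 rose with rimonabant by 0.76, 0.37, 0.69 and 0.90 on the log2 scale (edgeR, adjusted p = 0.012, 0.0384, 0.0322 and 0.0259). These calls too were lost without a DMSO library, those with colchicine also without either of its own libraries, and those with rimonabant also without its second. The part of the mesenchymal content of a library in the levels of the 8 genes was not tested.

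**Figure D5:**
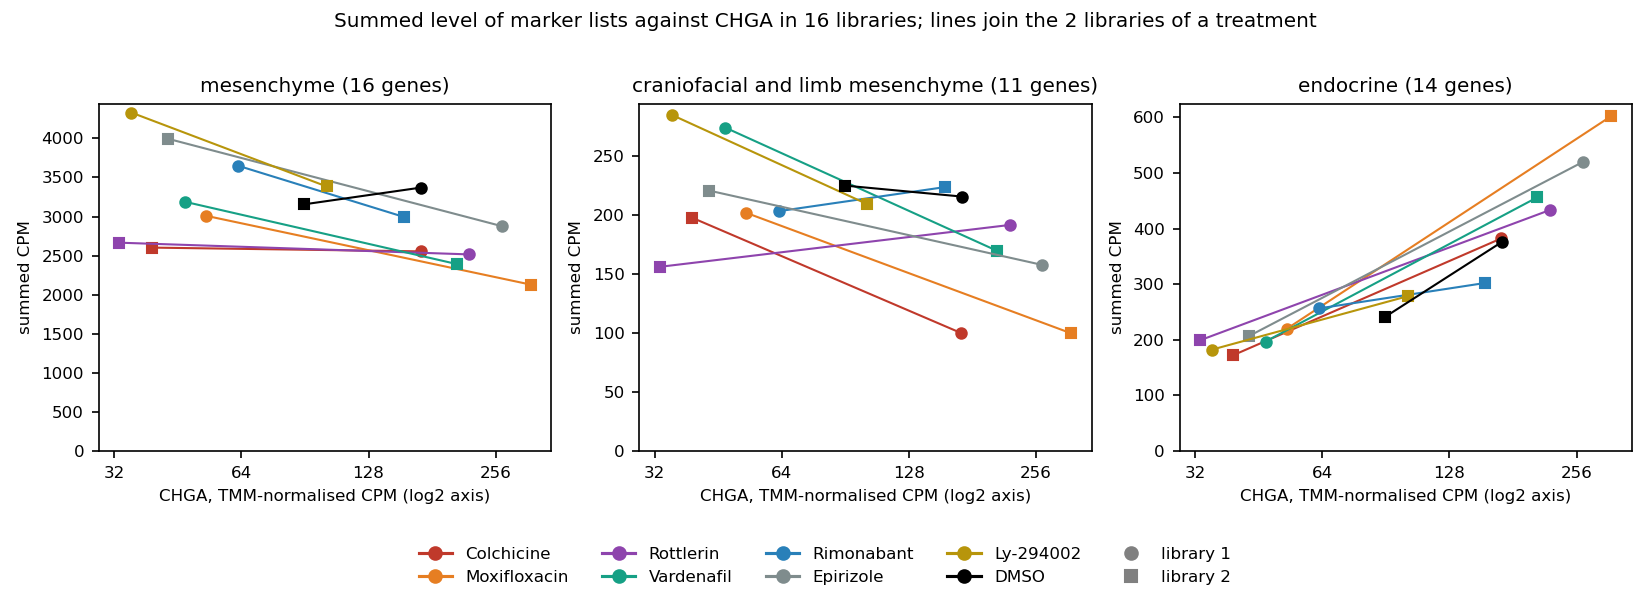
Summed CPM of the mesenchyme, craniofacial and limb mesenchyme, and endocrine lists against CHGA (TMM-normalised CPM, log2 axis) in 16 libraries. Lines join the 2 libraries of a treatment, and the endocrine sum includes CHGA. The mesenchyme sum was higher in the library with less CHGA in every treatment but DMSO.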

How the data were processed

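Reads per gene were deposited by the authors as raw counts, 62754 genes by 16 libraries, not normalised, and every column was matched to a sample. Per the labels' protocols, ribosomal RNA was depleted with KAPA RNA HyperPrep with RiboErase, reads were trimmed with Trimmomatic 0.38 and aligned with STAR 2.7.1a, and featureCounts 1.6.0 or HTSeq counted them. The submitters' processing notes name HTSeq and GRCh38. Annotation release, strand setting and handling of multiply mapped reads are not given in the sources used here, so ZIC1 and its antisense neighbour ZIC4 cannot be told apart by strand. Group membership came from the treatment label.

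The analysis used edgeR 4.0.16 in R 4.3.3, with filterByExpr (minimum count 10, minimum total 15), which kept 24515 genes and 99.92% of reads, TMM scaling, and a robust two-sided quasi-likelihood test of all 16 libraries with 1 coefficient per group, 8 residual degrees of freedom and a common biological coefficient of variation of 0.1652. The Benjamini-Hochberg adjustment ran over the 24515 genes, and calls needed an adjusted p under 0.05. In counts simulated for the colchicine comparison on 23879 genes, 61 of 100 genes changed 2-fold and 87 of 100 changed 4-fold were recovered, with 10 false calls. The changed genes were drawn from those with a mean of at least 1 CPM, which LHX9, SHISA3, HGF and TRPC6 did not reach. The members also had prior degrees of freedom of 1.1 to 4.4, below the median of 7.04 over tested genes. These recovery rates therefore do not carry over to the members. Alternatives included DESeq2 1.42.0, other scalings, no filter, GC content (known for 95.26% of tested genes), a replicate block, CHGA as a covariate and leaving out each library. The 2 libraries of each group differed by more than sampling noise. By the rule for named genes, all 8 members are given in every library, log2 changes with SE where the unadjusted p was under 0.05, the 3 genes most like each member and the 10 most like all, and lists by counts with their most abundant genes. Some genes that the rule names are left out. Other list genes, and the members named for the largest values above DMSO, were chosen after their values were seen. The members, the lists and the tests were chosen with earlier results of these data known.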

Additional observations from a re-analysis of the deposited data

How the results depend on the processing

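None of the 8 genes was called with any compound or in the joint test under RLE size factors, under the GC offset, under the replicate block, or when any 1 library was left out. Without a filter on low counts, 6 members were called with colchicine, 6 with moxifloxacin, 3 with rottlerin, 1 with vardenafil and 8 in the joint test. Of the 44689 genes tested in that fit, 1568 were called with colchicine, 742 with moxifloxacin and 1076 with rottlerin. Vardenafil gave 113 and the joint test 3022. In that fit the prior degrees of freedom were infinite for the members, against 1.1 to 4.4 in the filtered fit, so their own spread did not enter. With CHGA as a covariate 5 members were called with colchicine, 1 with rottlerin and 3 in the joint test. With the compound and DMSO libraries alone 2 were called with colchicine, EPHA3 and TMEM132C, and with DESeq2 1 with colchicine, EPHA3, and 1 in the joint test. Of 88 alternative values for the 8 named log2 changes, 0 changed sign and 14 passed an adjusted p of 0.05, 0 of them with a library left out.

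Over all genes, colchicine gave 150 calls with RLE size factors, 1568 without a filter, 5 with the replicate block, 1812 with the covariate, 1 with the GC offset, 259 with its and the DMSO libraries alone and 926 with DESeq2, against 48. Rimonabant gave 1090 with the replicate block, 3593 with the covariate, 0 with the GC offset, 200 alone with DMSO and 2936 with DESeq2, against 1913. Rottlerin gave 1076 without a filter, 943 with the covariate, 0 with the GC offset, 71 alone with DMSO and 678 with DESeq2, against 2. Moxifloxacin gave 742, 27, 9 and 62 calls (no filter, covariate, alone with DMSO, DESeq2), vardenafil 113, 1, 7 and 2, Ly-294002 169 without a filter and 5 alone with DMSO, and epirizole 33 without a filter, against 0 each. The joint test gave 3022 without a filter, 785 with the covariate and 1217 with DESeq2, against 1. Leaving out 1 library gave 1 to 2 calls with colchicine, 0 to 5 with rottlerin, 0 to 3913 with rimonabant and 0 to 361 in the joint test, the highest of the last 2 without the first rimonabant library. The cause was not tested. A replicate block uses numbers that do not pair the samples: over 28 pairs of groups the deviations of same-numbered libraries correlated from -0.66 to 0.61, and 11 exceeded 0.1.

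The 95% interval of each correlation with CHGA was computed from the same 16 libraries. It reached above 0 for LHX9 (-0.795 to 0.002), EPHA3 (-0.737 to 0.14) and SHISA3 (-0.694 to 0.227). The correlations kept their sign under every alternative and stayed inside that interval. The alternatives share most of the same data, so staying inside is no separate check. With 1 library left out the correlations ran from -0.77 to -0.67 for ZIC1, -0.57 to -0.43 for LHX9, -0.63 to -0.39 for ALX4 and -0.60 to -0.24 for EPHA3. They ran from -0.48 to -0.18 for SHISA3, -0.72 to -0.52 for HGF, -0.68 to -0.49 for TRPC6 and -0.67 to -0.39 for TMEM132C. The 2 libraries per group and counts at or under 3 reads in up to 6 libraries limit ZIC1, LHX9, SHISA3, HGF and TRPC6.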
